A study of Homo sapiens with 6 samples.

Results

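The Notch genes followed here are 10 genes of 60623 in the deposited tables, found by their symbols: the receptors NOTCH1, NOTCH2 and NOTCH3, the ligands JAG1 and JAG2, the transcriptional repressors HES1, HES4, HES7 and HEY1, and the ubiquitin ligase gene DTX4. All 10 entered the test, 9 of them with enough counts in every library and HES7 only through the control-labelled libraries. They were measured by RNA-seq in 6 libraries of the human hepatocellular carcinoma cell line PLC/PRF/5, grown in DMEM with serum. Of these, 3 libraries were labelled as carrying a lentiviral vector that overexpresses the zinc finger factor ZFP64 and 3 as holding a control lentiviral vector. No clone, culture or selection step is given, so what the p-values measure is the spread among these 6 samples, possibly a technical one. The question posed by the design is which transcripts differ between the 2 kinds of cells.

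The labels and the targeted gene disagreed. ZFP64 was at 35.0, 35.6 and 31.5 CPM (counts for every 1e6 counts of a library, after TMM scaling) in the ZFP64-OE-labelled libraries, against 142, 160 and 138 CPM in the control-labelled libraries, 4.31-fold lower by edgeR. Every direction below is therefore that of the ZFP64-OE-labelled libraries relative to the control-labelled ones, whatever their true identity. The libraries held between 35109227 and 39739674 counts in the ZFP64-OE-labelled group and between 26468949 and 37466920 in the control-labelled group, and control-labelled replicate 1 stood apart from the others on the second principal component. Counts of mitochondrial genes made up 5.05% to 6.22% of the ZFP64-OE-labelled libraries and 3.67% to 4.60% of the control-labelled ones, and 5 of 13 mitochondrially encoded mRNAs rose; the part of this in the results below was not tested. The hepatocyte gene APOB was at 964 ± 174 FPKM (fragments per kilobase of gene per 1e6 counts) in the ZFP64-OE-labelled libraries and 573 ± 112 FPKM in the control-labelled ones, and SERPINA1 was at 519 ± 45.7 FPKM in the ZFP64-OE-labelled libraries and 934 ± 127 FPKM in the control-labelled ones (SD, n = 3 each), while TTR, another hepatocyte gene, had 0 to 3 counts.

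Notch signalling passes between touching cells. A ligand of the Jagged or Delta family on a cell pulls on a Notch receptor on its neighbour, the receptor is cut by ADAM proteases and γ-secretase, and its intracellular part enters the nucleus and joins the DNA-binding protein RBPJ to switch on genes, above all those of the HES and HEY repressors. In liver the pathway is known for directing progenitor cells towards the biliary fate, with JAG1 and NOTCH2 as the pair whose mutation causes Alagille syndrome.

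The promoters of the HES genes and of DTX4 are shown because HES1 and HES4 carry the RBPJ core motif, while HES7 and DTX4 do not in these windows. DTX4 is called below, and the call of HES7 is given there as a description only. Each run covers 250 bases before and 50 bases after a RefSeq start on GRCh38.p14, read along the gene, and capitals mark the letters TGGGAA (or TTCCCA, its reverse complement), searched on both strands; DTX4 has 2 annotated starts.
HES1, chr3:194135898-194136197, plus strand: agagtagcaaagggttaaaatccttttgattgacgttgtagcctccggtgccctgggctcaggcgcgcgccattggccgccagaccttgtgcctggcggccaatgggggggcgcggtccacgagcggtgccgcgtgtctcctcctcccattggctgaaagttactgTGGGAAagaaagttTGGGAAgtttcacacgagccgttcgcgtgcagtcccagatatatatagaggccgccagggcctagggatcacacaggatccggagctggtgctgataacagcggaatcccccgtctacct
HES4, chr1:1000048-1000347, minus strand: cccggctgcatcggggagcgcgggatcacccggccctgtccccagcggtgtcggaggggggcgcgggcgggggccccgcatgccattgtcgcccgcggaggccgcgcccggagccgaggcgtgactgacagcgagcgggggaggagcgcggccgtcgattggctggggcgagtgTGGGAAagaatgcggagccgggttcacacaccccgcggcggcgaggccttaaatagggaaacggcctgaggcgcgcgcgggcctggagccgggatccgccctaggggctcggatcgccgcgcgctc
HES7, chr17:8124057-8124356, minus strand: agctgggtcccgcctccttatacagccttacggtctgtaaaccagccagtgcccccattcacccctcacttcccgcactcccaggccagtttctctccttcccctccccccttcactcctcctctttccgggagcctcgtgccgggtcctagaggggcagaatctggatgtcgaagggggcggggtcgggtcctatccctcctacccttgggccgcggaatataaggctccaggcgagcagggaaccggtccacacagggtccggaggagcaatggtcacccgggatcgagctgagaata
DTX4, chr11:59171180-59171479, plus strand: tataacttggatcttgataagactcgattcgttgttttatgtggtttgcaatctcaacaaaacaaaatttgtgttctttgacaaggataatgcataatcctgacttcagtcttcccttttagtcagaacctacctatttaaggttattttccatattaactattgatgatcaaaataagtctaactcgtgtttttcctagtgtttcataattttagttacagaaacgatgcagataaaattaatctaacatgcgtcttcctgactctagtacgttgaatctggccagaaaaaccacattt
DTX4, chr11:59171882-59172181, plus strand: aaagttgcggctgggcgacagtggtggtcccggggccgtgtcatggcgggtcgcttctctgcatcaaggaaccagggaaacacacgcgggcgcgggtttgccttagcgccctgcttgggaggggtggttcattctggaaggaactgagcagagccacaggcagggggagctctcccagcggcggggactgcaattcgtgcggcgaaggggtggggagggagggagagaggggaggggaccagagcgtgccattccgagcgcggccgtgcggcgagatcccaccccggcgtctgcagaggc
Of the 10 genes, 9 had a promoter entry and HEY1 had none. HES1 holds the motif at 84 and 70 bases before its start and HES4 once, at 76 bases before its start. None of the other 7 genes, NOTCH1, NOTCH2, NOTCH3, JAG1, JAG2, HES7 and DTX4, holds it within its window. Among all 35116 promoter windows of this length, 24.0% hold the motif at least once. The longer form CGTGGGAA (reverse complement TTCCCACG), found in 0.826% of all windows, was in none of the 10 windows of these genes. A match of letters is a description and not a bound site.

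Of the 9 Notch genes that reached the count filter in every library, 2 fell and 0 rose in the ZFP64-OE-labelled libraries, with the quasi-likelihood test of edgeR and a threshold of 0.05 on the adjusted p. They were DTX4, a modifier of the pathway, and HEY1, a repressor gene, with log2 fold changes of -0.53 and -0.85. HES7, another repressor gene, was also below the threshold (-1.34), but it was at the filter of 0.276 CPM (before TMM scaling) in 0 of 3 ZFP64-OE-labelled libraries and in 3 of 3 control-labelled ones, so it was tested only because it was higher in the control-labelled group, and its call is given as a description. Over all 19173 genes tested, 5.81% were called, 4.03% lower and 1.78% higher. The median log2 fold change of the 9 was -0.18, against -0.0166 for all genes tested. Of the 9, 7 were below 0, as were 10201 of all 19173 genes tested. The CPM of the groups did not overlap for 6 of the 9, where 21.9% of all genes tested were without overlap (12.8% with the ZFP64-OE-labelled libraries below and 9.17% with them above). At an unadjusted p under 0.05, edgeR had 5 of the 10 lower, HES7 among them, and 1 higher, JAG2. Between 3374 and 3711 of all 19173 genes tested were under that unadjusted threshold in edgeR. The 10 genes were chosen with earlier results of these data known. Their counts and median are therefore given as a description beside the values over all genes. DESeq2 called 1 of the 10 lower, DTX4, and 0 higher. Its fit covered 38246 genes, not all of which got an adjusted p, against 19173 in edgeR. Its calls over all genes were less one-sided, with 596 lower and 464 higher against 772 and 342 by edgeR.

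**Figure D1:**
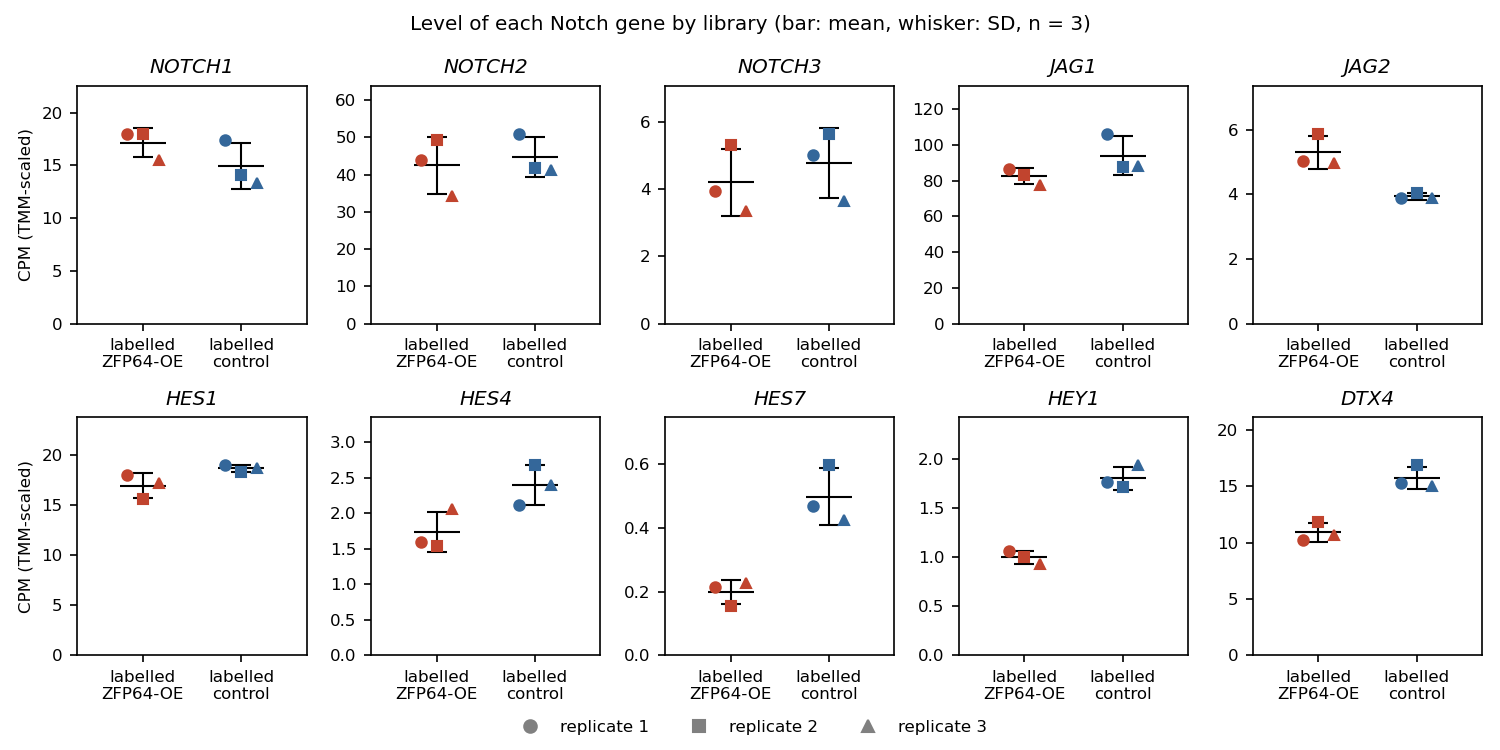
Each panel plots 1 gene, with CPM (TMM-scaled, linear axis from 0) on the y axis and the ZFP64-OE-labelled libraries left of the control-labelled ones; points are libraries, the bar is the mean and the whisker the SD (n = 3). DTX4 lies between 10.2 and 11.9 CPM in the ZFP64-OE-labelled libraries and between 15.1 and 16.9 CPM in the control-labelled ones, while the 2 groups overlap for NOTCH1, NOTCH2 and NOTCH3.

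None of the receptor genes passed the test, with 0 at an unadjusted p under 0.05 in edgeR and 0 called by DESeq2. They encode the single-pass receptors whose cut intracellular part carries the signal. NOTCH2 (ENSG00000134250, chromosome 1, 119911553 to 120069626, minus strand, GRCh38 in GENCODE v29) was at 43.9, 49.3 and 34.3 CPM in the ZFP64-OE-labelled libraries and 51.0, 41.8 and 41.3 CPM in the control-labelled ones. The groups overlapped over most of their range, and ZFP64-OE-labelled replicate 3 was the lowest of the 6. The log2 fold change of NOTCH2 was -0.07 with a 95% interval of -0.32 to 0.18 (edgeR adjusted p = 0.812). Its sign turned without ZFP64-OE-labelled replicate 3 (0.07) or without control-labelled replicate 1 (0.03). Reads of NOTCH2 can be shared with its near-identical partial copies NOTCH2NLA and NOTCH2NLC, which had 6 to 28 counts a library. How many reads were shared or dropped is not known from these counts, so the level of NOTCH2 is uncertain.

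NOTCH1 (ENSG00000148400, chromosome 9, 136494433 to 136545786, minus strand) was at 17.9, 18.0 and 15.5 CPM in the ZFP64-OE-labelled libraries and 17.4, 14.05 and 13.3 CPM in the control-labelled ones. Only control-labelled replicate 1 reached into the range of the other group. Its log2 fold change of 0.21 had an interval of -0.018 to 0.43 (edgeR adjusted p = 0.314), and it was 0.33 without control-labelled replicate 1. NOTCH3 (ENSG00000074181, chromosome 19, 15159038 to 15200981, minus strand), a receptor best known from smooth muscle and pericytes, was at 3.94, 5.29 and 3.34 CPM in the ZFP64-OE-labelled libraries, against 5.02, 5.65 and 3.64 CPM in the control-labelled libraries. In both groups replicate 2 was the highest and replicate 3 the lowest. The log2 fold change of NOTCH3 was -0.18 with an interval of -0.57 to 0.20 (edgeR adjusted p = 0.651). Single libraries moved it widely, to -0.39 without ZFP64-OE-labelled replicate 2, -0.34 without control-labelled replicate 3, -0.039 without ZFP64-OE-labelled replicate 3 and -0.036 without control-labelled replicate 2.

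The ligand genes JAG1 and JAG2 had fold changes of opposite sign and neither passed, in edgeR or in DESeq2. JAG1 (ENSG00000101384, chromosome 20, 10637684 to 10673999, minus strand), the Jagged ligand linked to bile duct formation, was at 86.6, 83.2 and 77.6 CPM in the ZFP64-OE-labelled libraries and 106, 87.4 and 88.2 CPM in the control-labelled ones. The groups did not overlap, but the gap was narrow and control-labelled replicate 1 was far above its partners. The log2 fold change of JAG1 was -0.19 with an interval of -0.37 to -0.0071 (edgeR adjusted p = 0.241), and it was -0.090 without control-labelled replicate 1. JAG2 (ENSG00000184916, chromosome 14, 105140981 to 105168824, minus strand), the second Jagged ligand, was at 5.04, 5.89 and 4.98 CPM in the ZFP64-OE-labelled libraries and 3.88, 4.06 and 3.88 CPM in the control-labelled ones. All 3 ZFP64-OE-labelled libraries lay above all 3 control-labelled ones. Its log2 fold change of 0.43 had an interval of 0.14 to 0.72 and an unadjusted p of 0.00626 in edgeR, and it did not pass after adjustment (adjusted p = 0.0824).

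The make-up of the ligand pair was compared within libraries as a share of summed FPKM, which needs no scaling between libraries. JAG1 made up 92.2%, 90.7% and 91.5% of the summed FPKM of JAG1 and JAG2 in the ZFP64-OE-labelled libraries, against 95.0%, 93.7% and 94.0% in the control-labelled libraries. The shares did not overlap, with a mean difference of -2.76 percentage points and an exact two-sided permutation p of 0.1, the smallest that 3 against 3 libraries allow. For the receptors, NOTCH2 made up 50.7% ± 1.84 in the ZFP64-OE-labelled libraries and 54.1% ± 1.80 in the control-labelled ones (SD, n = 3 each; exact permutation p = 0.2), and NOTCH3 made up 10.6% ± 1.17 in the ZFP64-OE-labelled libraries against 12.2% ± 2.39 in the control-labelled libraries (exact permutation p = 0.4). These receptor shares overlapped between the groups. The share of NOTCH2 rests on a gene length of 19930 bases in the deposited tables; with the 11389 bases of its longest coding transcript in GENCODE v29, and the other receptors treated alike, it was 61.4% ± 1.78 in the ZFP64-OE-labelled libraries and 64.6% ± 1.61 in the control-labelled ones (SD, n = 3).

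**Figure D2:**
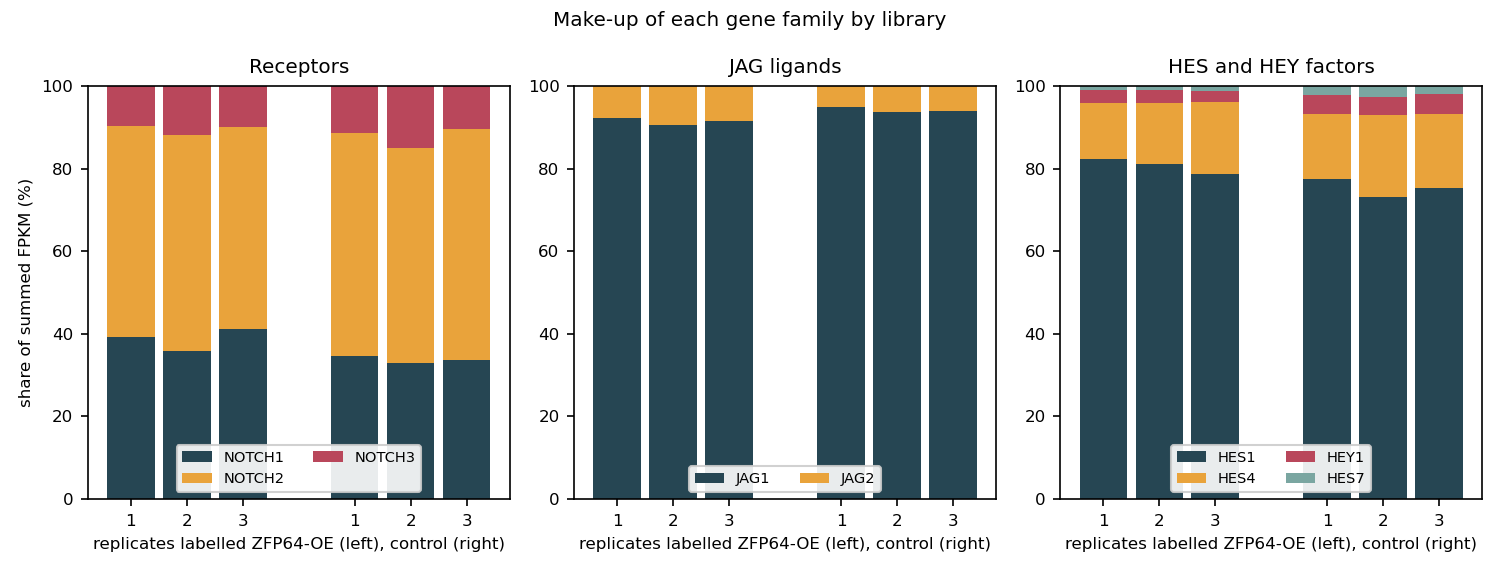
Stacked bars give the share of summed FPKM (%) in each library for the receptors, the JAG ligands and the HES and HEY factors, with the 3 ZFP64-OE-labelled replicates left of the 3 control-labelled ones in each panel. JAG1 makes up between 90.7% and 95.0% of the ligand pair, and HES1 is 80.7% of the repressor group on average in the ZFP64-OE-labelled libraries and 75.3% in the control-labelled ones.

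The repressor genes differed by level and by size of change. HES1 (ENSG00000114315, chromosome 3, 194136145 to 194138732, plus strand), the textbook direct target of Notch, whose promoter above holds the RBPJ core motif in 2 places, was the most abundant of them. It was at 18.0, 15.6 and 17.2 CPM in the ZFP64-OE-labelled libraries and 19.0, 18.3 and 18.7 CPM in the control-labelled ones. The groups did not overlap, but the nearest libraries were 18.0 and 18.3 CPM. The log2 fold change of HES1 was -0.14 with an interval of -0.33 to 0.050 (edgeR adjusted p = 0.435), and it was -0.084 without ZFP64-OE-labelled replicate 2.

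HES4 (ENSG00000188290, chromosome 1, 998962 to 1000172, minus strand), a HES family repressor with 1 copy of the motif in its promoter, was at 1.60, 1.54 and 2.06 CPM in the ZFP64-OE-labelled libraries and 2.12, 2.68 and 2.40 CPM in the control-labelled ones. Replicate 3 labelled ZFP64-OE lay close to the lowest control-labelled library, and the groups did not overlap. Its log2 fold change of -0.48 had an interval of -0.89 to -0.073 and did not pass (edgeR adjusted p = 0.175).

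HEY1 (ENSG00000164683, chromosome 8, 79764010 to 79767863, minus strand), a repressor that pairs with HES proteins and is best known from vessels and heart, was 1.80-fold lower in the ZFP64-OE-labelled libraries. It was at 1.07, 1.00 and 0.933 CPM in them, from 40, 39 and 33 counts, and at 1.76, 1.72 and 1.94 CPM in the control-labelled libraries, from 45, 66 and 64 counts. Each group was tight beside the gap between them. The log2 fold change of HEY1 was -0.85 with a standard error of 0.215 (edgeR adjusted p = 0.0210). The call did not hold with DESeq2 (adjusted p = 0.0604), and it was lost without ZFP64-OE-labelled replicate 1, 2 or 3 (edgeR adjusted p = 0.0573, 0.0745 and 0.0571) and without control-labelled replicate 2 or 3 (0.0673 and 0.0692), while the log2 fold change stayed between -0.90 and -0.78.

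HES7 (ENSG00000179111, chromosome 17, 8120590 to 8124092, minus strand), an oscillating repressor of the segmentation clock in mouse embryos, was near the floor of detection. It had 8, 6 and 8 counts in the ZFP64-OE-labelled libraries and 12, 23 and 14 counts in the control-labelled ones. These are 0.213, 0.154 and 0.226 CPM in the ZFP64-OE-labelled libraries, against 0.471, 0.598 and 0.425 CPM in the control-labelled libraries, without overlap. The fitted difference was 2.52-fold lower, a log2 fold change of -1.34 with a wide interval of -2.15 to -0.52 (edgeR adjusted p = 0.0495). The call was lost without any 1 of the 6 libraries (edgeR adjusted p between 0.0653 and 0.300) with RLE scaling (0.0525) and with no count filter (0.0645), and DESeq2 gave the gene no adjusted p.

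Among the 4 repressor genes, HES1 made up 82.4%, 81.0% and 78.7% of the summed FPKM in the ZFP64-OE-labelled libraries and 77.4%, 73.2% and 75.4% in the control-labelled ones. The shares did not overlap, and the mean difference was 5.36 percentage points (exact two-sided permutation p = 0.1, again the smallest possible). In these sums HES1 was a larger part of the group in the ZFP64-OE-labelled libraries. Its own level did not pass a test in either direction. The sums include HES7, which was tested only because it was higher in the control-labelled group. HES7 averaged 0.104 FPKM in the ZFP64-OE-labelled libraries and 0.268 FPKM in the control-labelled ones. The share without HES7 was not computed, so the difference is given as a description.

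DTX4 had the smallest p of the 10 genes. DTX4 (ENSG00000110042, chromosome 11, 59171430 to 59208587, plus strand) encodes a Deltex ubiquitin ligase, which acts on Notch receptors as they are taken into the cell and also marks the innate immune kinase TBK1 for breakdown. It was at 10.2, 11.9 and 10.7 CPM in the ZFP64-OE-labelled libraries, from 384, 462 and 379 counts, and at 15.3, 16.9 and 15.1 CPM in the control-labelled libraries, from 390, 650 and 497 counts. All 3 ZFP64-OE-labelled libraries lay well below all 3 control-labelled ones. The log2 fold change was -0.53 with a standard error of 0.102, 1.44-fold lower (edgeR adjusted p = 0.00242). The call held with DESeq2 (adjusted p = 0.00131) and without each library in turn (edgeR adjusted p between 0.00374 and 0.0235). It was lost when limma was run on log2(FPKM + 0.1), with an adjusted p of 0.0565 and a log2 fold change of -0.53. The gene overlaps MPEG1 on the opposite strand, which had 0 counts in all 6 libraries.

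**Figure D3:**
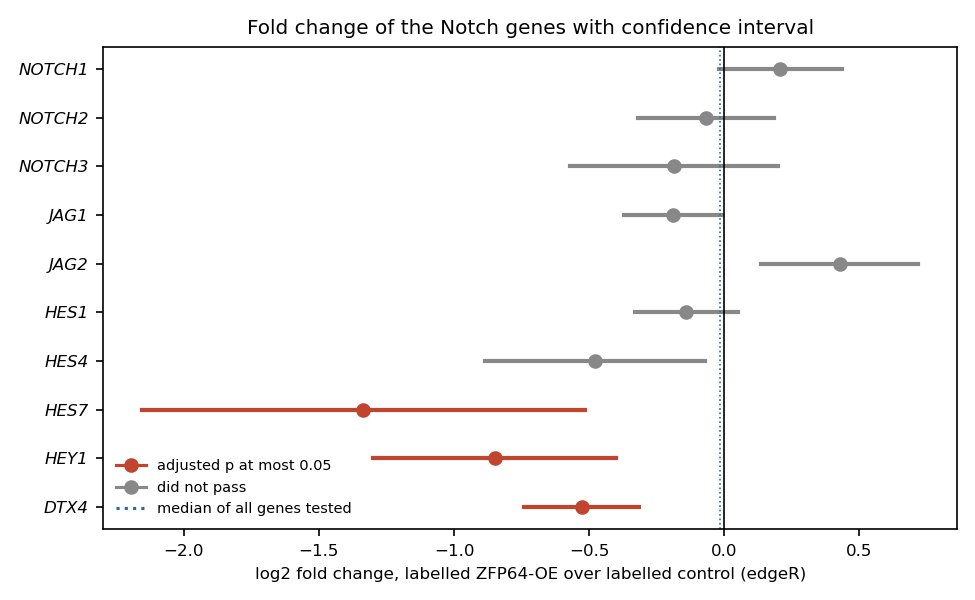
The x axis gives the log2 fold change of the ZFP64-OE-labelled libraries over the control-labelled ones by edgeR, with its 95% interval as a line, for the 10 genes ordered by role; red marks an adjusted p of at most 0.05, and the dotted line is the median of all 19173 genes tested. DTX4, HEY1 and HES7 lie left of 0, with the interval widest for HES7, and JAG2 (0.43) is the highest of the 10.

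Compared per length, JAG1 was the highest at 9.48 FPKM on average over the 6 libraries and above HES1 (8.65 FPKM) in all 6, although their ranges overlapped. NOTCH2 (2.18 FPKM), DTX4 (2.08 FPKM), HES4 (1.86 FPKM) and NOTCH1 (1.50 FPKM) formed a middle group in which every neighbour overlapped the next. JAG2 (0.721 FPKM), NOTCH3 (0.476 FPKM), HEY1 (0.437 FPKM) and HES7 (0.186 FPKM) were lower, and ranges of neighbours overlapped there too. Ranges were apart between HES1 and NOTCH2 and between NOTCH1 and JAG2. The 2 genes called from the 9 at the filter in every library thus lay in different parts of this order, DTX4 in the middle and HEY1 towards the low end. HES7, whose call is a description only, was the lowest. FPKM uses 1 gene length for all transcripts of a gene, so levels between genes shift with the length chosen.

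**Figure D4:**
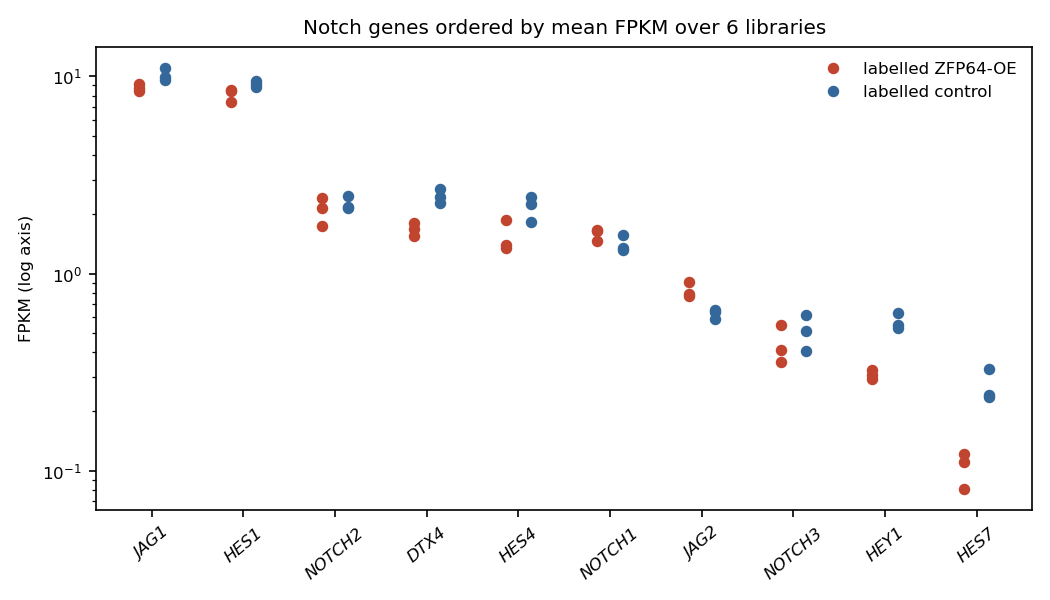
The y axis gives FPKM on a log scale for the 10 genes ordered by their mean over the 6 libraries, with each point a library, those labelled ZFP64-OE left of the control-labelled ones. JAG1 and HES1 lie at 7.41 FPKM or higher in every library, and HES7 lies between 0.0803 and 0.327 FPKM.

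The wider pathway was read from 11 lists that hold 91 further genes, of which 79 had enough counts to be tested. Of these 79, 1 rose, 6 fell and 72 did not pass by edgeR, with a median log2 fold change of -0.04. Thus 8.86% were called, where 5.81% of all genes tested were. DESeq2 called 4 higher and 6 lower, beside 464 higher and 596 lower over the 38246 genes of its fit. The 1 that rose by edgeR and 4 of the 6 that fell were on the list of liver genes below. PSENEN and ID1 were the only calls on the other lists. The lists were chosen with earlier results of these data known, so the 8.86% is given as a description. The number called was 13 without ZFP64-OE-labelled replicate 3, 12 without control-labelled replicate 1 and 4 without control-labelled replicate 2.

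Among the other ligands, 3 of 5 were tested and 0 passed in edgeR (1 at an unadjusted p under 0.05) or DESeq2. DLL4, the Delta ligand known from sprouting vessels and the most abundant of these, was at 25.1 ± 1.42 CPM in the ZFP64-OE-labelled libraries and 26.9 ± 3.09 CPM in the control-labelled ones (SD, n = 3 each; log2 fold change -0.10, edgeR adjusted p = 0.636). DLK1, a Delta-like membrane protein of fetal liver, is named here because of its values: it had 0 counts in each of the 3 ZFP64-OE-labelled libraries and 6, 12 and 11 counts in the control-labelled libraries. Against a floor of 3 counts over the group it was at least 11.15-fold lower. DLK1 did not reach the minimum count and, having been picked for its values, is given with no test. Other receptors were near the floor, with NOTCH4 at 9 to 18 counts a library and 0 of 3 tested genes called by edgeR (0 at an unadjusted p under 0.05) or DESeq2. The most abundant, NOTCH2NLC, was at 0.475 ± 0.0301 CPM in the ZFP64-OE-labelled libraries and 0.639 ± 0.181 CPM in the control-labelled ones (SD, n = 3 each).

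Of the 9 genes that cut the receptor, 1 fell and 8 did not pass by edgeR, while DESeq2 called 1 higher and 1 lower. PSENEN, the smallest subunit of γ-secretase, was at 3.29 ± 1.03 CPM in the ZFP64-OE-labelled libraries and 5.17 ± 0.704 CPM in the control-labelled ones (SD, n = 3 each), with overlapping groups (log2 fold change -0.66, edgeR adjusted p = 0.0453). DESeq2 (adjusted p = 0.0482) and limma-voom (0.0335) called PSENEN too. In edgeR it also passed with RLE scaling (0.0439), with no filter (0.00238) and without ZFP64-OE-labelled replicate 3 (0.00229) or control-labelled replicate 1 (0.0262). Its call was lost without ZFP64-OE-labelled replicate 1 or 2 (edgeR adjusted p = 0.212 and 0.132) and without control-labelled replicate 2 or 3 (0.199 and 0.112), and also with library totals only (0.0913), a stricter filter (0.0646) and limma on log2(FPKM + 0.1) or log2(FPKM + 1) (limma adjusted p = 0.193 and 0.198). FURIN, the protease that first cuts Notch in the Golgi and the most abundant of the list, was at 732 ± 50.0 CPM in the ZFP64-OE-labelled libraries against 598 ± 56.3 CPM in the control-labelled libraries (SD, n = 3 each). The groups did not overlap, and FURIN did not pass by edgeR (log2 fold change 0.29, adjusted p = 0.104). DESeq2 called it higher (0.32, adjusted p = 0.0138).

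By edgeR no gene was called on the lists of receptor glycosylation (9 tested), ligand endocytosis (6), receptor trafficking and turnover (10), the nuclear activation complex (7) or nuclear corepressors (14). At an unadjusted p under 0.05 there were 4 higher and 4 lower among the 46 genes tested on these lists. Of all 19173 genes tested, between 3374 and 3711 were under that unadjusted threshold in edgeR, so these 8 are given as a description. DESeq2 called 1 gene of these lists, AAK1, a kinase of the trafficking list (log2 fold change 0.33 there). The most abundant genes of these lists had small fold changes. POFUT1, which adds fucose to Notch, had a log2 fold change of 0.0011, MIB1, the ligase that drives ligand uptake, 0.08, ITCH, a ligase that turns Notch over, 0.15, SNW1, a nuclear coactivator, 0.06, and HDAC1, a histone deacetylase of the repressor complex, -0.09. On the list of other HES and HEY factors 2 of 7 were tested and 0 passed in edgeR (1 at an unadjusted p under 0.05) or DESeq2. HES6, a family member that opposes HES1, was at 5.16 ± 0.839 CPM in the ZFP64-OE-labelled libraries and 6.61 ± 1.24 CPM in the control-labelled ones (SD, n = 3 each; edgeR adjusted p = 0.188). HES3, HES5 and HELT had 0 counts in all 6 libraries.

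Of 9 tested genes reported as Notch targets outside the HES and HEY families, 1 fell and 8 did not pass. ID1, an inhibitor of bHLH factors that also answers to BMP signalling, was at 197 ± 38.9 CPM in the ZFP64-OE-labelled libraries and 282 ± 49.2 CPM in the control-labelled ones (SD, n = 3 each; log2 fold change -0.52, edgeR adjusted p = 0.0495). DESeq2 called ID1 as well (adjusted p = 0.00459). In edgeR the call held with RLE scaling (0.0380), with no filter (1.67e-06) and without ZFP64-OE-labelled replicate 3 (0.000410). The ID1 call was lost without ZFP64-OE-labelled replicate 1 or 2 (edgeR adjusted p = 0.184 and 0.134) and without control-labelled replicate 1, 2 or 3 (0.0692, 0.163 and 0.0565), and also with library totals only (0.133), a stricter filter (0.0586), limma-voom (0.0519) and limma on log2(FPKM + 0.1) or log2(FPKM + 1) (0.184 and 0.195). ID3, the most abundant of the list, had a log2 fold change of -0.27 and did not pass (adjusted p = 0.101).

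Of 7 tested genes that respond to Notch in liver or mark biliary cells, 4 were lower, 1 was higher and 2 did not pass by edgeR. DESeq2 called 4 lower and 2 higher. Their median log2 fold change was -0.46. Over all genes tested 4.03% were lower and 1.78% higher. The list was chosen with earlier results of these data known, so its number of calls is given as a description. SOX9 (-1.14), a transcription factor of bile duct cells, fell, as did SOX4 (-0.46), which acts with it in bile duct formation in mouse. The duct keratins KRT7 (-1.26) and KRT19 (-3.36) fell too. SOX9 was at 16.9 ± 0.248 CPM in the ZFP64-OE-labelled libraries and 37.5 ± 1.97 CPM in the control-labelled ones (SD, n = 3 each, edgeR adjusted p = 9.08e-09). SOX4 was at 44.2 ± 1.22 CPM in the ZFP64-OE-labelled libraries and 60.7 ± 4.13 CPM in the control-labelled ones (SD, n = 3 each; edgeR adjusted p = 0.000687). KRT7 was low, at 0.756 ± 0.242 CPM in the ZFP64-OE-labelled libraries against 1.79 ± 0.534 CPM in the control-labelled libraries (SD, n = 3 each; edgeR adjusted p = 0.00833), but leaving out control-labelled replicate 2 ended its call (edgeR adjusted p = 0.101), as did limma on log2(FPKM + 0.1) or log2(FPKM + 1) (limma adjusted p = 0.107 and 0.115). KRT19 was near the floor in the ZFP64-OE-labelled libraries, at 9, 15 and 19 counts (0.388 ± 0.149 CPM). It had 105, 168 and 114 counts (3.98 ± 0.471 CPM) in the control-labelled ones (SD, n = 3 each, edgeR adjusted p = 1.23e-08). KRT19 was at the count filter in 2 of 3 ZFP64-OE-labelled libraries and in 3 of 3 control-labelled ones. SPP1, which encodes osteopontin, moved the other way (log2 fold change 1.20, edgeR adjusted p = 0.00209). ONECUT1, a hepatobiliary transcription factor and the most abundant of the list, did not pass by edgeR (0.28, adjusted p = 0.0636). DESeq2 called ONECUT1 higher (0.31, adjusted p = 0.0351). Markers of hepatocytes moved beside these genes in both directions, with 4 of 9 tested higher and 2 lower by edgeR. ALB (0.91), AFP (0.77), APOB (0.78) and FGB (0.83) rose, and APOA1 (-0.59) and SERPINA1 (-0.82) fell. The summed level of the hepatocyte list was 1651 to 2042 FPKM in the ZFP64-OE-labelled libraries against 1584 to 2011 FPKM in the control-labelled libraries, and the part of these markers in the results above was not tested.

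**Figure D5:**
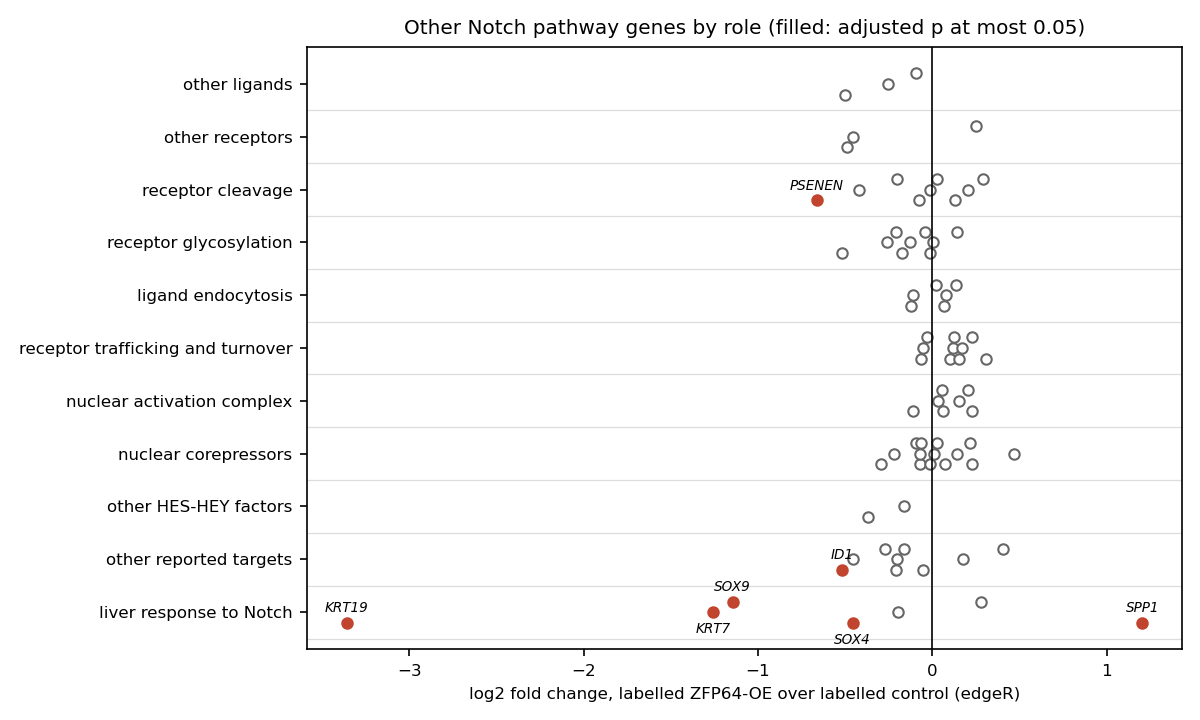
Each point is a tested gene of the 11 further lists, placed by its log2 fold change of the ZFP64-OE-labelled libraries over the control-labelled ones (x axis, edgeR) and by its role (rows); filled and named points have an adjusted p of at most 0.05. On the 5 lists from receptor glycosylation to nuclear corepressors the 46 points lie between LFNG (-0.52) and TLE4 (0.47) and none is filled, and 5 of the 7 filled points are in the row of liver genes.

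Markers of other cell types in which Notch genes are known to be expressed were mostly at or near 0. Of 9 endothelial genes, KDR, TEK, ERG and ROBO4 had 0 counts in all 6 libraries, and the summed level of 0.551 to 0.811 FPKM in the ZFP64-OE-labelled libraries against 1.68 to 1.80 FPKM in the control-labelled ones came mainly from PECAM1 (1.12 FPKM on average, log2 fold change -1.49), followed by CDH5 at 0.0555 FPKM. Of 9 genes of fibroblasts and mural cells, COL1A2 had 0 counts in every library and ACTA2 and DCN 0 to 3, with a sum of 0.892 to 1.12 FPKM in the ZFP64-OE-labelled libraries against 1.42 to 1.53 FPKM in the control-labelled libraries; PDGFRB (0.711 FPKM, log2 fold change -0.13) and COL3A1 (0.300 FPKM) were the most abundant. COL3A1 fell, with 0.691 ± 0.0735 CPM in the ZFP64-OE-labelled libraries and 3.38 ± 0.416 CPM in the control-labelled ones (SD, n = 3 each; log2 fold change -2.28, edgeR adjusted p = 3.79e-07). The macrophage list summed to 177 to 215 FPKM in the ZFP64-OE-labelled libraries against 295 to 333 FPKM in the control-labelled libraries, nearly all of it LYZ (256 FPKM, log2 fold change -0.61, edgeR adjusted p = 0.000307), with CSF1R at 0.0774 FPKM and CD163, MARCO and CD14 at 0 to 3 counts. The lymphocyte list summed to 0.538 to 0.743 FPKM in the ZFP64-OE-labelled libraries against 0.290 to 0.761 FPKM in the control-labelled libraries, led by NKG7 and CD79A (0.354 and 0.0988 FPKM), with PTPRC at 0.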

How the data were processed

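RNA of 6 PLC/PRF/5 libraries was sequenced after Trizol extraction and Illumina TruSeq preparation, per the labels' protocols. Per the submitters' processing notes, HISAT2 and the build GRCh38 were used; for the counting program, annotation and strand setting, nothing was given in the sources used here, so overlapping and antisense reads cannot be told apart. The deposited table of raw counts per gene is not normalized, and the deposited FPKM table follows from it: for all 24388 genes with counts in all 6 libraries it implied the same gene length in every library (relative tolerance 1e-06). Positions came from GENCODE v29 (58516 of 60623 IDs found).

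The members and lists were chosen with earlier results of these data known. The test was edgeR 4.0.16 in R 4.3.3 on counts (filterByExpr with minimum count 10 and minimum total 15, TMM scaling, robust quasi-likelihood F-test on group alone), with Benjamini-Hochberg adjustment over 19173 genes and a threshold of 0.05; intervals are 95% and use the standard error, the log2 fold change over the root of F. The common biological coefficient of variation was 0.0857. CPM used all counts of a library times its TMM factor. DESeq2 1.42.0, limma 3.58.1 (voom, and log2 FPKM with pseudocounts of 0.1 and 1), other scalings, other filters, a replicate block and leaving out each library were the alternatives. Scripts were tested on simulated data. Shares of FPKM were set against each other with an exact permutation test. The genes named are the 10 members, ZFP64, each called gene and the most abundant gene of each pathway list, and the 2 most abundant of each other list, with others chosen after their values were seen. Pairs of replicates differed by more than sampling noise (chi-square per gene at least 11.5), and depth limits the low genes, with counts covering counting error only.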

Additional observations from a re-analysis of the deposited data

How the results depend on the processing

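The number of Notch genes called, 3 by edgeR with HES7 counted, was 1 with DESeq2 and with limma on log2(FPKM + 0.1) or log2(FPKM + 1), and between 1 and 2 without each library in turn. HES7 lost its call with DESeq2 (log2 fold change -1.31, no adjusted p), RLE scaling (-1.32), library totals only (-1.37), no filter (-1.32), limma on log2(FPKM + 1) (-0.20) and without each library (-1.43 to -1.17). HEY1 lost it with DESeq2 (-0.83), limma on log2(FPKM + 0.1) (-0.71) and without 5 of the libraries (-0.90 to -0.78 over all 6). DTX4 lost it with limma on log2(FPKM + 0.1) (-0.53) and log2(FPKM + 1) (-0.38), where all genes called numbered 470 and 439 against 1114 by edgeR. The sign of NOTCH2 turned without ZFP64-OE-labelled replicate 3 (0.0688) and without control-labelled replicate 1 (0.03), with a range of -0.19 to 0.07. The cause of these changes was not tested. JAG2 passed with the replicate block (0.43, adjusted p = 0.0387), which called 2096 genes in all and 15 of the pathway genes. The replicate numbers are shared by the groups only as numbers: deviations of same-numbered libraries correlated at 0.018, 0.020 and 0.097, so the block is not used for pairing. For the shares, the mean of the paired differences equals the main difference by construction. The smallest sign-flip p that 3 pairs allow is 0.25, so the block is no check of the shares. Pathway genes called were 12 with no filter, 4 with limma on either FPKM scale, and between 4 and 13 without each library; all genes called were between 587 and 1535. The split of all calls was 69.3% lower by edgeR and 56.2% with DESeq2. No share of FPKM changed sign with counts, with the length of the longest coding transcript (chosen after seeing the data) or without any library. Depth limits HES7 most: its lowest library had 6 counts.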

Other observations

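Further pathway genes passed under some of the 15 alternatives and not by the main test. AAK1, a kinase that acts on NUMB and Notch uptake, passed in 5, with a log2 fold change of 0.31 by the main test. FURIN and ONECUT1 passed in 4 each. CDKN1A, the cell cycle inhibitor p21, passed in 3 (-0.46 by the main test). By contrast SOX9, SOX4, KRT19 and SPP1 passed in all 15, DTX4 in 13, KRT7 in 12, HEY1 in 8, PSENEN in 7, ID1 in 5 and HES7 in 3.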
